A study of Drosophila melanogaster with 3 samples.

Results

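The gap genes hb, Kr, kni and gt and the pair-rule genes eve, ftz, run, odd and prd were examined for binding of CG1529, a predicted zinc finger protein, in Drosophila melanogaster embryos. The 9 genes were chosen by name, with earlier results of these data known. All 9 were found among the 18164 genes (13945 protein-coding, transposable elements left out) of the Ensembl BDGP6 annotation. Around each gene a window was drawn that holds the gene body and 10 kb to each side, and every peak with its summit in that window was taken. The windows span 21477 to 26843 bp and do not overlap each other. All positions are on the dm6 assembly, and distances are from a gene's nearest annotated transcription start site (TSS).

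The libraries are 3 biological replicates of chromatin immunoprecipitation with sequencing (ChIP-seq) from whole embryos of both sexes, aged 0 to 14 h, of a single transgenic line expressing CG1529 with green fluorescent protein (GFP) at its C terminus. They form a single group with no second condition, genotype or treatment. One label names CG1529 as the antibody target and another describes the same libraries as input. The peaks of all these libraries were called against a shared control alignment that is separate from them, so they are treated here as CG1529-GFP libraries. Embryos of all stages from 0 to 14 h were mixed, so the lists do not separate the stages at which these genes are active, nor cells that express them from cells that do not.

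Gap and pair-rule genes encode transcription factors that divide the early fly embryo into segments. Maternal gradients switch on the gap genes in broad domains, and gap and maternal proteins then drive the pair-rule genes in stripes. Many of these genes are controlled by several separate enhancers that lie upstream, downstream or within introns, and eve, with its separate stripe enhancers on both sides of the gene, is a textbook case.

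Within 10 kb of these genes CG1529-GFP peaks of the authors' thresholded list were few, and the contrast with other genes depended on the window and on the genes compared. That list, here the optimal list, was cut with the irreproducible discovery rate, which measures how well peak ranks repeat between replicates. It holds 3905 distinct peaks, and a peak in it need not rank high in every library. Only odd, a zinc finger repressor gene, had a summit of it in its window, so 1 of 9 genes had one, where 52.9% of protein-coding genes did (7380 of 13945, exact 95% interval 52.1 to 53.8). No member had an optimal summit within 500 bp of an own TSS, where 13.3% of protein-coding genes had one. The 9 windows held 0.472 optimal summits per 100 kb against 2.92 over the genome, so that 6.18 would lie in windows of this size at the genome's density. With 20 kb to each side the shares were close, since 6 of 9 members had an optimal summit (11 summits) against 69.9% of protein-coding genes, and with 5 kb 0 of 9 had one against 38.4%. Among protein-coding genes with at most 1 TSS position of another gene in the 10 kb window the share was 24.2%, and 1 of the 5 members that are this isolated had an optimal summit. These are descriptions of 9 named genes, and no test was made on them.

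Weaker peaks were present around most members. Beside the optimal list the authors deposited a relaxed list from the pooled libraries, which, per the file listings, holds peaks and background. It has 29972 distinct peaks, and the optimal list is its 3905 strongest by signal. In it 8 of 9 members had a summit in the window (89.6% of protein-coding genes did), with 40 summits in 36 separate regions. Hence hb, Kr, kni, gt, ftz, run and prd had only relaxed peaks, odd had both kinds, and eve, a homeodomain repressor gene, had neither. The 39 relaxed summits had signals from 38.2 to 107, while the weakest optimal peak has 157.0 and the strongest peak below that list 156.9. All 40 summits together, the optimal odd peak included, were also low for the relaxed list. Of the 40, 13 lay above that list's median signal of 61.6, and the members' median was 51.9. The list's median is over all 29972 peaks, so it includes the optimal ones. Signal is the authors' value for each peak, and signals of different lists may not be on a common scale.

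**Figure D1:**
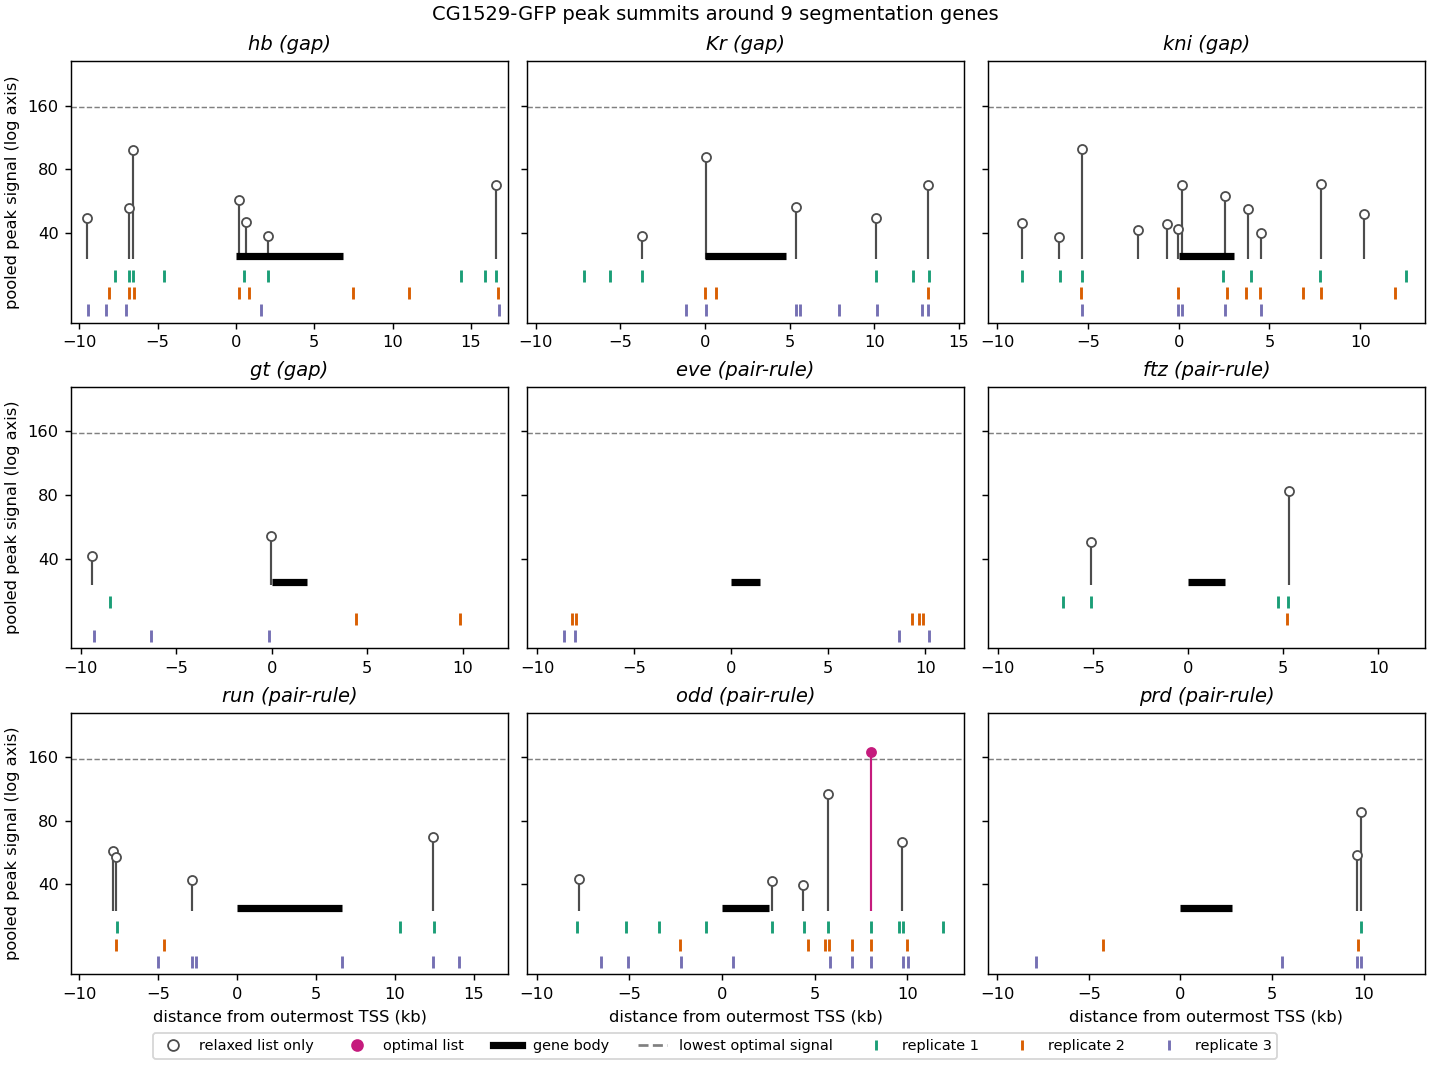
Summits in the windows of the 9 genes, by distance in kb from the gene's outermost TSS in the direction of transcription (x axis) and signal in the pooled list (y axis, log scale). Circles are pooled summits (filled: optimal list), bars are gene bodies, the dashed line is the lowest optimal signal (157.0), and coloured ticks are the rows of each library at no signal scale. Only the odd panel has a summit above the line, at 169, and the eve panel has no pooled summit.

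The libraries held similar numbers of rows in these windows but few strong ones. Replicates 1, 2 and 3 had 42, 38 and 44 rows, or 19.5 ± 1.44 per 100 kb (SD, n = 3 libraries) against 22.4 over the genome. Among the 3921 strongest peaks of each library, the length of the optimal list, the windows held 2, 0 and 1, a mean of 0.472 ± 0.472 per 100 kb (SD, n = 3) against 2.93 over the genome. Members with such a peak were hb and odd in replicate 1 and odd in replicate 3, against 51.3%, 53.5% and 53.8% of protein-coding genes in replicates 1, 2 and 3. Of the 39 relaxed pooled summits, 9 overlapped a row in all 3 libraries, 15 in 2, 12 in 1 and 3 in none, where 36.4% of all 26067 relaxed summits outside the optimal list overlapped a row in all 3. Overlap with a library is built in, because the pooled list was made from the same reads, and neighbouring pooled peaks can overlap the same library row.

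Sequence at the strongest pooled summit is shown for 7 of the 8 members that have one, because these are the places of highest pooled signal near each gene. That of Kr is not shown. Each line holds 101 bases of the dm6 plus strand, centred on the summit, from the RefSeq copy of the assembly. Capitals mark matches on either strand to any of 8 motifs searched: TAATTA (homeodomain core), GGATTA (Bicoid), TTTATG (Caudal), CATAAAA (Hunchback core), AAGGGTTA (Kruppel), CAGGTAG (Zelda), GAGAG (GAGA factor) and TATCGATA (the DNA replication-related element, DRE).
odd, 2L:3598653-3598753: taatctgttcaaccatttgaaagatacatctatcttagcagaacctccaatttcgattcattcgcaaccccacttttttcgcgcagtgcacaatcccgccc
hb, 3R:8704356-8704456: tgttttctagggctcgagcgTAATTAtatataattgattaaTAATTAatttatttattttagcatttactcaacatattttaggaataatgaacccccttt
kni, 3L:20700669-20700769: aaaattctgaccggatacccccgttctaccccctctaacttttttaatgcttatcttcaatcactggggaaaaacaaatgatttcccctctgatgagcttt
gt, X:2428970-2429070: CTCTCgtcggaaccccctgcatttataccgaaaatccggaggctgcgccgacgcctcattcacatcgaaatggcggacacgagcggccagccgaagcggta
ftz, 3R:6869559-6869659: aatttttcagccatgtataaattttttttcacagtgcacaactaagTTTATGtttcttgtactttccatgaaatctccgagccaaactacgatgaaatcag
run, X:20703035-20703135: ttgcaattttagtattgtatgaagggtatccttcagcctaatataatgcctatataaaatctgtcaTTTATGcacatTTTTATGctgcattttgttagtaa
prd, 2L:12075907-12076007: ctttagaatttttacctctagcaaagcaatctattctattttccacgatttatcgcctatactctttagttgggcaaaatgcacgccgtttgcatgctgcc

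The only optimal summit, that of odd, held none of the 8 motifs in these 101 bases, and neither did those of kni and prd. The hb line holds TAATTA at 2 places, the gt line GAGAG on the minus strand, the ftz line TTTATG, and the run line TTTATG at 2 places, 1 of them within a match to CATAAAA on the other strand. Over all 40 member summits TTTATG was in 9 (22.5%) against 14.0% of optimal and 12.6% of pooled summits, and CATAAAA, every match of which contains TTTATG on the other strand, was in 5 (12.5%) against 5.51% and 4.91%. TAATTA was in 3 (7.5%) against 9.94% and 7.46%, and GAGAG in 4 (10%) against 10.1% and 12.1%. GGATTA was in 1 (2.97% of optimal and 3.02% of pooled summits hold it) and AAGGGTTA in 1 (0.205% and 0.304%). CAGGTAG (0.410% and 0.464%) and TATCGATA (0.768% and 0.594%) were in none. Some of the 40 peaks overlap each other, though the stretches searched for motifs do not. No test was made on these counts, and a match is not a binding site. G+C within 50 bp was 41.3% ± 9.68 at the 40 member summits (SD over summits), 39.4% ± 9.72 over the pooled list and 33.8% ± 9.11 over the optimal list.

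Among the gap genes hb had the strongest single-library peak. hb encodes a zinc finger protein, is supplied maternally as well as transcribed in the anterior of the embryo, and has 2 annotated TSSs (gene body 3R:8690980-8697822, minus strand). Its highest pooled summit, at 3R:8704188-8704623 with signal 98.6, was intergenic and 6584 bp upstream. In replicate 1 an overlapping row of signal 53.3 ranked 3684, inside the strongest 3921, and in replicate 2 a row of signal 30.3 ranked 9124. In replicate 3 no row overlapped it, so rows of 2 of 3 libraries overlapped it. A second pooled peak that overlaps it (52.3) shares these rows and also had a row in replicate 3, at rank 17263. A weaker pooled summit lay 165 bp downstream of the distal TSS in the 5′ UTR (signal 57.0), with rows in replicates 1 and 2 at ranks 8682 and 15562 and none in replicate 3. The replicate 1 row had its summit 320 bp away and also overlapped a pooled peak with its summit 672 bp downstream of that TSS. Where overlap of 50% was required, replicate 2 alone had a row at the 5′ UTR peak. The other pooled summits of hb had signals from 38.7 to 67.3, and the strongest of them was 9780 bp past the gene's end and nearest to the TSS of CG33325.

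For Kr, which encodes a zinc finger repressor of the central embryo (2R:25226611-25231394), the strongest pooled summit was at the promoter. The peak at 2R:25226434-25226869 (signal 91.6) had its summit 41 bp downstream of the TSS, in the 5′ UTR. It overlapped rows in replicate 2 (signal 31.3, rank 8647) and replicate 3 (signal 52.2, rank 5690), and none in replicate 1. The other 4 pooled summits, with signals of 38.6 to 67.2, lay in introns of CG9380, a gene on the other strand whose body encloses Kr. Of these, the one 8381 bp past the gene's end (67.2) had a row in all 3 libraries, at ranks 26361, 13850 and 17145. The replicate 3 row of that rank had its summit 327 bp away, and a weaker row nearer to the pooled summit ranked 21918.

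kni had the most relaxed peaks of the 9 genes in the pooled list, but not in every library. It encodes a nuclear-receptor-family repressor of the posterior (3L:20692330-20695378), and its window holds no TSS of another gene. There were 12 pooled summits in 11 separate regions, or 52.1 per 100 kb against 22.4 over the genome. By number of summits this was more than in the windows of 85.6% of protein-coding genes. In replicates 1, 2 and 3 the kni window held 7, 8 and 5 rows, against 11, 7 and 9 for odd and 9, 8 and 5 for hb. The strongest, at 3L:20700501-20700936 (signal 100.02), was 5341 bp upstream and had a row in every library, with signals of 29.99, 33.5 and 30.7 at ranks 8983, 7680 and 13401 in replicates 1, 2 and 3. Its mean position was 33.4% ± 10.001 from the top of the lists (SD, n = 3). A pair of overlapping peaks lay at the distal TSS, 42 bp upstream (signal 41.7) and within the 5′ UTR (67.3), and both overlapped rows of replicates 2 and 3 but none of replicate 1. Another in the coding exon (59.9, 1716 bp from the proximal TSS) had rows in all 3 libraries at ranks 12472, 21267 and 19870. The 12 were spread over both sides and the gene itself, and 3 of them overlapped no library row.

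gt, which encodes a leucine zipper repressor (X:2427113-2428967), had the weakest strongest peak of the 8 genes with any. Its 2 pooled summits were 53 bp upstream of the TSS (signal 51.1) and 9420 bp upstream (41.2, nearest to tko). Each overlapped a row in replicate 3 alone, at ranks 18934 and 19829.

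The peaks at the TSSs of Kr, kni and gt thus had no row in replicate 1, and that of hb had none in replicate 3. In all, 4 of 9 members had a relaxed pooled summit within 500 bp of an own TSS, against 40.9% of protein-coding genes. These 4 were the 4 gap genes, and none was a pair-rule gene. Rows per 100 kb were also higher in the gap than in the pair-rule windows in each library, at 23.8, 21.8 and 21.8 against 16.5, 14.7 and 19.9 in replicates 1, 2 and 3, with means of 22.4 ± 1.196 and 17.0 ± 2.65 (SD, n = 3). These SDs are over libraries and leave out the spread between genes. In replicates 1, 2 and 3 the gap genes gt and hb had 1, 2 and 3 and 9, 8 and 5 rows. The pair-rule genes ftz and odd had 4, 1 and 0 and 11, 7 and 9. Over the genome each library had 22.4 per 100 kb, and the difference between the classes was not tested.

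Among the pair-rule genes odd stood highest. The odd gene is at 2L:3604224-3606756 on the minus strand. Its optimal peak at 2L:3598485-3598920 (signal 169) ranked 3479 of the 3905 and was intergenic, 5521 bp past the end of the gene and 8053 bp from its TSS, which is the nearest TSS of any gene. The overlapping rows had signals of 40.2, 33.0 and 75.7 and ranks of 5429, 7917 and 3159 in replicates 1, 2 and 3, on average 18.3% ± 7.93 from the top (SD, n = 3). Replicate 3 alone placed it among its strongest 3921. The summits in the 3 libraries all lay within 50 bp of the pooled one, and over all optimal peaks 95% overlapped a row in every library. A neighbouring relaxed peak at 2L:3600811-3601246 (signal 107, 5727 bp from the TSS) was the next strongest of all the members and had rows in every library as well. Replicate 1 ranked it 3145, above the optimal peak, while replicates 2 and 3 ranked it 13521 and 12539. Of the other 4 pooled summits, 3 were on the same downstream side, with signals of 39.9 to 63.5, and 1 was upstream (42.4).

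eve was the only member with no row of the pooled list, though not the one with the fewest library rows. Its window (gene body 2R:9979319-9980795) also held no row of replicate 1. Replicates 2 and 3 had 5 and 4 rows there, more in all than the libraries had around ftz, gt or prd, and all were at least 7980 bp from the eve TSS. The strongest in replicate 2 (signal 47.5, rank 4253) was 5 bp upstream of a TSS of CG12134, and the strongest in replicate 3 (signal 60.6, rank 4477) was 177 bp downstream of a TSS of TER94. eve has 9 TSS positions of other genes in its window, the most of the 9 members.

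ftz, a homeodomain activator gene within the Antennapedia complex (3R:6864324-6866244), had 2 pooled summits. The stronger, 3R:6869391-6869826 (signal 83.9), was 3365 bp past the gene's end and had rows in replicate 1 (40.9, rank 5302) and replicate 2 (32.0, rank 8335). Replicate 3 had no row anywhere in the ftz window. The weaker one (48.1) was 7 bp upstream of lncRNA:CR45900 and had a row in replicate 1 alone. run, which encodes a Runt-domain transcription factor (X:20690670-20697321), had 4 pooled summits with signals from 41.8 to 67.0, of which a pair of overlapping peaks upstream share their library rows. Its strongest, at X:20702867-20703302, was 5764 bp past the gene's end, with rows in replicates 1 and 3 (ranks 10396 and 17108), and no summit of run had a row in all 3 libraries. prd, which encodes a paired-domain and homeodomain protein (2L:12082995-12085827), had 2 overlapping pooled peaks, with signals of 88.4 and 55.1. Both were at the promoter of CG14947, with summits 143 bp upstream and 83 bp downstream of its TSS. Both lay over 9 kb from the nearest prd TSS, at 7038 and 6812 bp past the end of prd. They shared the same rows in the libraries, at ranks 4295, 9801 and 13018, so every pooled summit in the prd window was at another gene's start.

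**Figure D2:**
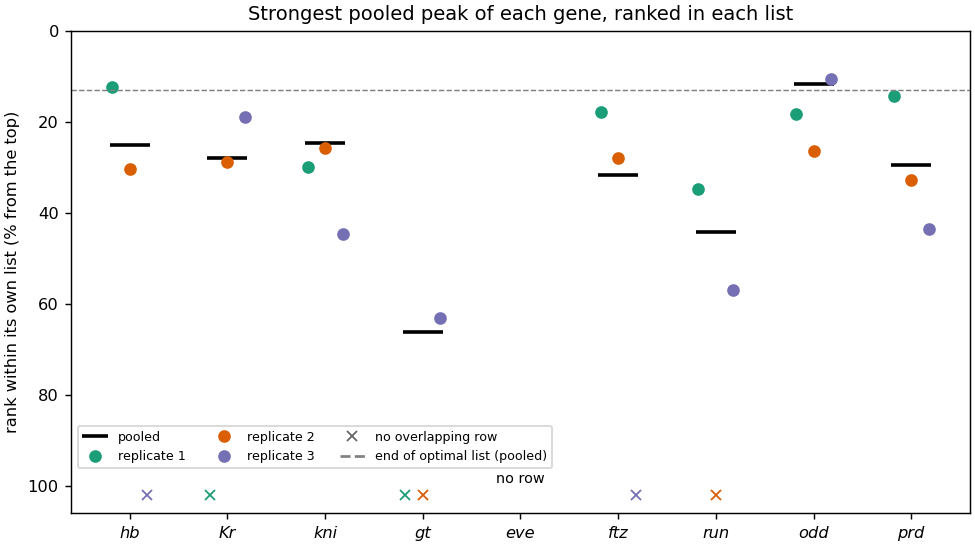
Rank of each gene's strongest pooled peak within the pooled list (black) and of the strongest overlapping row in each library (coloured), as a percentage from the top of the list (y axis, 0 at the top). Crosses mark libraries with no overlapping row, and the dashed line is where the optimal list ends in the pooled list. Only odd is above the line in the pooled list, and only kni, odd and prd have a row in all 3 libraries.

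The nearest optimal summit to the other 8 genes belonged to places nearer to another gene's TSS. The distance from a member's TSS to the nearest optimal summit ran from 8053 bp for odd to 59241 bp for Kr, with a median of 17765 bp, against a median of 10437 bp and quartiles of 3104 and 26786 bp over protein-coding genes. For 8 of 9 members it was above that median, and for Kr it was farther than for 90.7% of protein-coding genes. The nearest summits to hb, Kr, eve and prd were upstream of the TSSs of CG11755 (80 bp), CG34038 (289 bp), Pal1 (164 bp) and ThrRS (193 bp). The Pal1 peak, 19405 bp from eve, had a signal of 1527, the highest of these. Those nearest to kni, gt and run were 2516 bp upstream of CG34260, 8999 bp upstream of PsGEF and 1980 bp upstream of Cyp6v1, and that nearest to ftz was in an intron of lncRNA:CR44931.

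**Figure D3:**
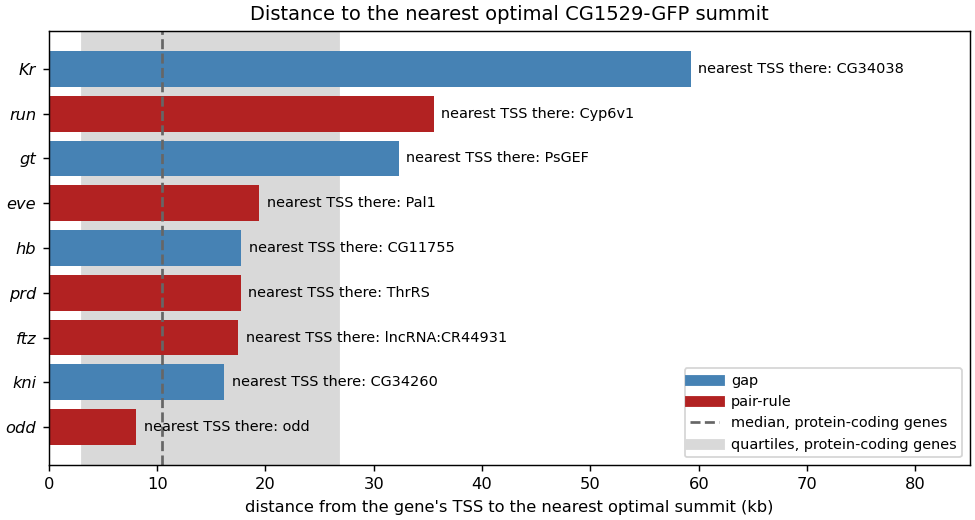
Distance in kb from the nearest own TSS of each gene to the nearest optimal summit (bars, blue for gap and red for pair-rule genes), with the gene whose TSS is nearest to that summit. The dashed line is the median (10437 bp) and the grey band the quartiles over 13945 protein-coding genes. The bar of odd is below the median, and the other 8 are above it.

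The share of genes with an optimal summit was lower where a window held few other promoters, as most but not all of these windows do. The members had a median of 1 TSS position of other genes in the window, against 7 for protein-coding genes, but eve had 9 and prd 8. Their median gene body was 2833 bp against 2166 bp. Among protein-coding genes with a body no longer than the longest member's, 49.8% had an optimal summit in the window, and among those with no more than 9 such TSS positions 48.4%. The share of 24.2% among those with at most 1 is over 922 genes (exact 95% interval 21.5 to 27.1), and the members that are as isolated are Kr, kni, gt, ftz and odd. The part of the sparse surroundings in the members' count was not tested.

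Optimal summits were more frequent around other segmentation genes. A list of 13 that was chosen with earlier results of these data known held the other pair-rule genes h (hry in the annotation), slp1, slp2 and opa, the terminal and head gap genes tll, hkb, oc, ems and btd, and the maternal genes bcd, cad, nos (nanos) and tor. Of these, 10 of 13 had an optimal summit in the window (76.9%, against the 52.9% of protein-coding genes), with 6.51 summits per 100 kb against 0.472 for the members. Those with none were tll, hkb and tor, and a peak shared by 2 windows counts in both. slp1 and slp2, which encode forkhead factors, shared a peak of signal 1103 between them, 4319 bp upstream of slp2. btd, a zinc finger gene of the head, had one of 706 at 6461 bp upstream, where lncRNA:CR42657 is nearer (464 bp), and the highest in the bcd window (469) was in the 5′ UTR of Ama. Within 500 bp of an own TSS 2 of 13 had a summit, bcd and nanos, where 13.3% of protein-coding genes had one. The 8 Hox genes had an optimal summit in 7 of 8 windows, but their bodies have a median of 30563 bp. Their density of 2.61 per 100 kb was below the 2.92 over the genome. These lists differ in gene length and neighbours, and the differences between them were not tested.

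**Figure D4:**
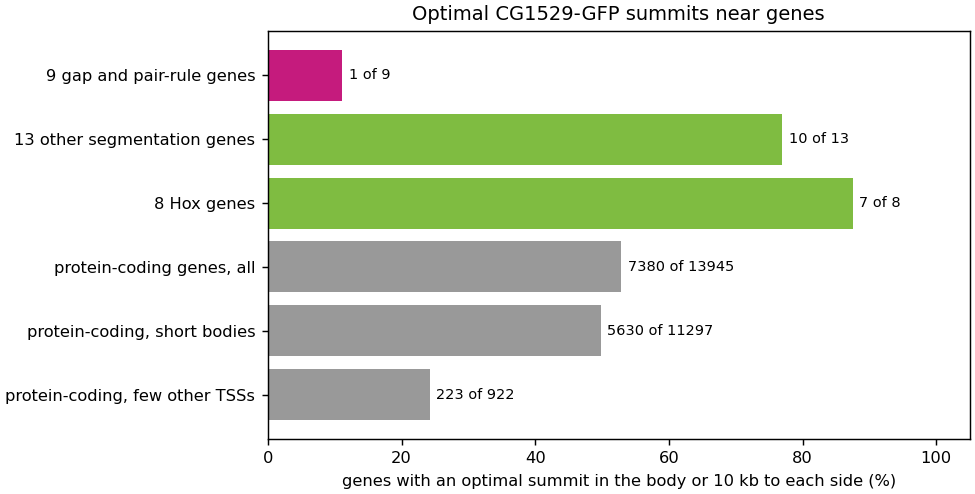
Percentage of genes with at least 1 optimal summit in the gene body and 10 kb to each side (bars from 0), for the 9 gap and pair-rule genes, 13 other segmentation genes, 8 Hox genes and protein-coding genes (grey: all, those with a body no longer than the longest member's, and those with at most 1 TSS of another gene in the window). The 9 genes are lowest at 1 of 9, and all protein-coding genes are at 52.9%.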

How the data were processed

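The files are peak lists. Per the file listings, the authors called each library's peaks on dm6 at a relaxed threshold against 1 shared control alignment, did the same on the pooled libraries, and derived a joint, thresholded list (irreproducible discovery rate, IDR) from these lists. The aligner, the caller and the IDR threshold were not given in the sources used here. Peak signal (column 7) and −log10 q-value (column 9) are as deposited by the authors, and how signal was scaled to the control is not given. Sequencing depth in reads is unknown. Each relaxed list has 30000 rows and the optimal list 3921. Rows with the same interval were counted once (3905 optimal, 29972 pooled).

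Summits were taken as column 2 plus column 10. Genes and TSSs came from the Ensembl BDGP6 annotation without transposable elements, on the main chromosome arms. A library row supported a pooled peak where they overlapped by 1 bp. Where several rows of a library overlapped a peak, the rank and signal given are those of the strongest. The 95% intervals of shares are Clopper-Pearson intervals, for counting error alone. They treat genes as independent, although windows of neighbouring genes overlap and share summits, so their width is not a full measure of uncertainty. Motifs were searched within 50 bp of summits. No hypothesis test was made. The counting was tested on simulated data. Analyses used Python 3.11.15, pandas 2.3.3 and scipy 1.17.1.

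The members, gene lists and motifs were chosen with earlier results of these data known. The named genes are the 9 members with every optimal summit, or otherwise the strongest pooled peak, and at most 4 of the 13 other segmentation genes by signal. Further relaxed peaks of members, tll, hkb, tor and nanos were named, and the Hox genes and the backgrounds limited by other TSSs added, after their values were seen. Alternatives were flanks of 5 and 20 kb, TSS windows of 250 and 1000 bp, the outermost TSS alone, the stronger 1952 optimal peaks, overlap of 50% or summits within 50 bp, the strongest 3921 peaks of each library, and leaving out each replicate.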

Additional observations from a re-analysis of the deposited data

How the results depend on the processing

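No paired analysis was possible because there is a single group. The count of 1 member with an optimal summit, and of 1 such summit, rests on the odd peak, whose signal of 169 is close to the list's lowest of 157.0 and whose summit is 5521 bp from the gene. Both counts were 0 with a flank of 5 kb (38.4% of protein-coding genes had a summit) and 0 with the stronger 1952 peaks (36.4%), and with 20 kb they were 6 members and 11 summits (69.9%). The member count was also 0 when a strongest peak at the same place in at least 2 of 3 libraries was required. It was 0 each time when, without each replicate in turn, such a shared place in both remaining libraries was required. The strongest peaks that odd had in replicates 1 and 3 lay at different places. The odd summit had a row in all 3 libraries by every overlap rule tried, but among the strongest 3921 peaks the count was 0. Its mean rank ranged from 14.3% to 22.2% without each replicate. The count of 0 members with an optimal summit within 500 bp of a TSS was 0 under all 4 alternatives. The background of 52.9% fell to 24.2% for genes with at most 1 other TSS in the window, an alternative added after seeing the data. Peak lists without read depth cannot show that CG1529 is absent from a locus.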
